A study of Danio rerio with 9 samples.

Results

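Insulin-like growth factors (Igfs) are secreted ligands that act through the Igf1 receptor, a tyrosine kinase, to drive growth and survival through the PI3K-Akt-Tor cascade. Igf binding proteins (Igfbps) in blood and tissue hold most of the ligand and set how much reaches the receptor, proteases release it, and the Igf2 receptor takes Igf2 up for degradation. In the zebrafish heart, Igf signaling is known for its role in cardiomyocyte proliferation. Expression of the genes of this axis was examined in cardiac ventricles of adult zebrafish, taking ligands first, then receptors and binding proteins.

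The genes were chosen by name: *igf1*, *igf2a*, *igf2b*, *igf1ra*, *igf1rb*, *igf2r*, *igfbp1a*, *igfbp3*, *igfbp5b* and *igfbp7*. Of these 10 symbols, 9 led to 10 of the 16575 genes with counts. The gene *igf1* has no row and is not analysed here. The table of gene names lists both Igf1 receptor genes as *igf1r*, so *igf1ra* and *igf1rb* are given by their identifiers without saying which is which. Likewise *igfbp5b* led to a pair of identifiers listed as *igfbp5*. The division of reads within each of these pairs is uncertain. *igfbp1a* is listed as *igfbp1* and is called so here. In the annotation of the GRCz12tu assembly, which was not the assembly of the study, 0 of the 10 symbols lie on the chromosome of *vegfc* or *vegfd*.

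Ventricles came from fish homozygous for a hypomorphic *vegfc* allele (hu5055) and for a *vegfd* null allele (uq9bh), written *vegfc*(hy-/-);*vegfd*(-/-), with 4 libraries, numbered 6 to 9, and from wild-type controls (*vegfc*(+/+);*vegfd*(+/+)), with 5 libraries, numbered 1 to 5. These are ligand genes of the lymphatic growth factor receptor Vegfr3. The fish were 5 months old and not injured, and the study bred both lines with a transgenic reporter that marks lymphatic vessels with DsRed under a *lyve1b* promoter. The *vegfc* allele keeps part of its function, since fish without *vegfc* do not live to adulthood. The question was how the ventricle differs when cardiac lymphatics fail to form.

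Libraries held 27320575 to 33496006 counts in mutants and 23302636 to 33407859 counts in controls. Control replicate 2 had the lowest total and the most genes at 0 counts, with 684, against 107 to 320 in mutants and 69 to 127 in the other controls. For this reason results are also given without it where that matters. Expression of *vegfd* was 0.368 ± 0.214 CPM (SD, n = 4) in mutants and 2.60 ± 1.25 CPM (SD, n = 5) in controls, an edgeR adjusted p of 0.0195. CPM are counts relative to the scaled library total. Expression of *vegfc* was 3.80 ± 1.86 CPM (SD, n = 4) in mutants and 2.99 ± 1.71 CPM (SD, n = 5) in controls (adjusted p 0.719), which a hypomorphic allele does not need to change. All 11 measured markers of ventricular cardiomyocytes had counts in both genotypes, with sums of 93932 to 104852 CPM in mutants and 115553 to 131141 CPM in controls.

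Of the 10 Igf genes, *igfbp7* was called lower in mutants and none was called higher. A call is an adjusted p under 0.05 by edgeR's quasi-likelihood F test across all genes. Over all genes tested, 3.34% were called, 2.13% higher and 1.21% lower. At an unadjusted p under 0.05, 4 of the 10 were lower in mutants (*igf2b*, *igf1r* ENSDARG00000034434, *igfbp3* and *igfbp7*) and 0 were higher, where 9.87% of all genes were lower. For *igf2b*, *igfbp3* and *igfbp7* all 4 mutants were below all 5 controls, a pattern seen in 4.46% of all genes, and no Igf gene had all mutants above, as 6.07% of all genes did. The median log2 fold change was -0.38 over the 10 genes and -0.01 over all genes, with 3 positive and 7 negative. RNA came from whole ventricle, so fewer cells of a type and less RNA per cell cannot be told apart.

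**Figure D1:**
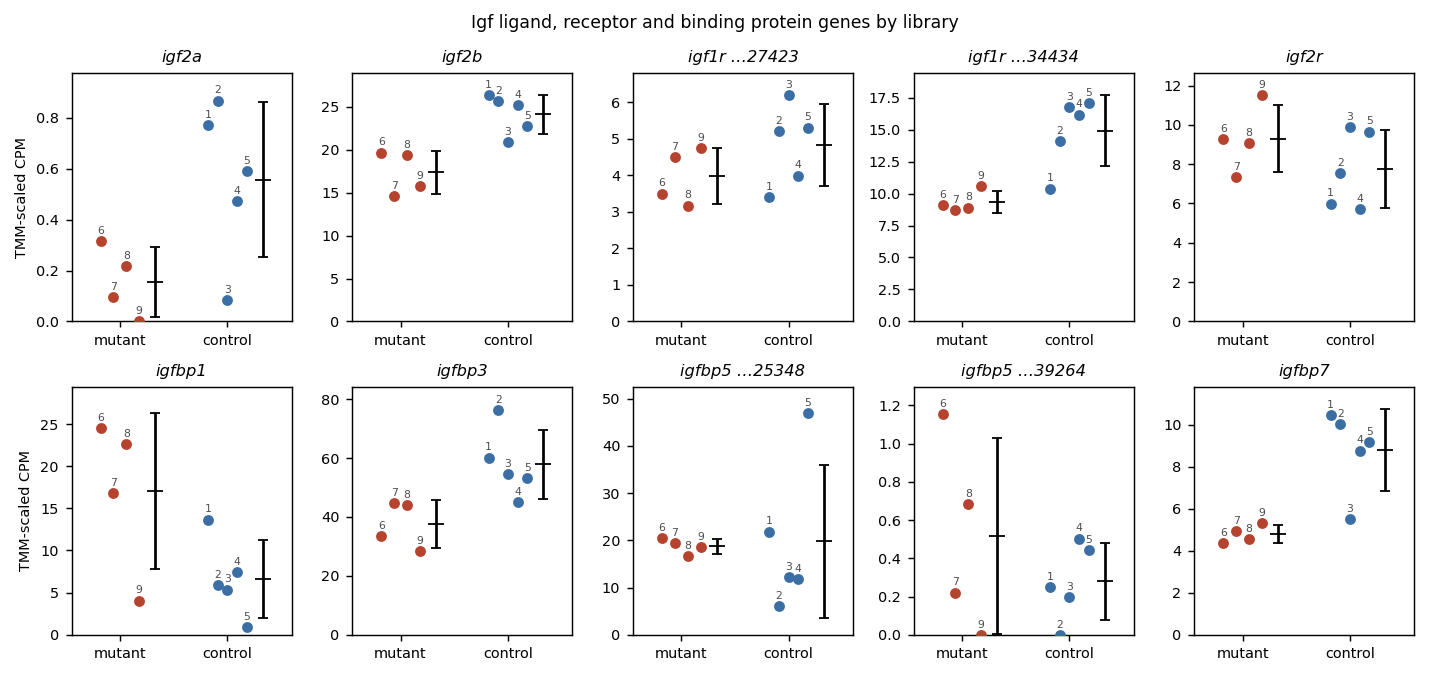
TMM-scaled CPM of the 10 Igf genes in each library, mutant (red, replicates 6 to 9) left of control (blue, replicates 1 to 5). Bars are mean ± SD (n = 4 and 5) and each panel has its own scale from 0; for *igf2b*, *igfbp3* and *igfbp7* the highest mutant library is below the lowest control library, and *igfbp1* has its lowest value in control replicate 5.

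Among the ligands, *igf2b* (ENSDARG00000033307) had 19.7, 14.6, 19.4 and 15.8 CPM in mutant replicates 6 to 9, against 26.3, 25.6, 20.9, 25.2 and 22.7 CPM in control replicates 1 to 5. The genotypes did not overlap, although mutant replicate 6 and control replicate 3 were close. Mutants averaged 17.4 ± 2.56 CPM (SD, n = 4) and controls 24.2 ± 2.28 CPM (SD, n = 5), 0.719 times the control level. On the log2 scale the difference was -0.48 ± 0.14 (SE). The edgeR adjusted p was 0.0903, so *igf2b* did not pass the test. DESeq2 called it, with an adjusted p of 0.0228, where that tool called 10.1% of the genes to which it gave a value. Of 18 alternative fits, DESeq2 was the 1 that called *igf2b*. Leaving out single libraries gave edgeR adjusted p of 0.110 to 0.203.

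The other Igf2 gene, *igf2a* (ENSDARG00000018643), was close to the limit of detection. It had 9, 3, 6 and 0 counts in mutants, against 25, 19, 3, 15 and 20 counts in controls. Control replicate 3 was as low as the mutants and the other controls were above them. Levels were 0.156 ± 0.138 CPM in mutants (SD, n = 4) and 0.558 ± 0.306 CPM in controls (SD, n = 5), a log2 fold change of -1.82 ± 0.90 (SE) with an edgeR adjusted p of 0.278. *igf2b* took 98.4%, 99.4%, 98.9% and 100% of the counts of the 2 Igf2 genes in mutants, against 97.1%, 96.7%, 99.6%, 98.2% and 97.5% in controls. Nearly all Igf2 counts thus came from *igf2b* in every library. The difference in mean share was 1.35 percentage points (exact permutation p 0.0714, two-sided, where 0.00794 is the smallest possible with all libraries). Without control replicate 3, the control with the highest share, the difference was 1.80 points (exact permutation p 0.0286). Without any 1 of the other libraries the exact permutation p was 0.0893 to 0.179.

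Of the Igf1 receptor genes, the identifier ENSDARG00000034434 had 9.10, 8.70, 8.90 and 10.6 CPM in mutants, against 10.4, 14.1, 16.7, 16.2 and 17.1 CPM in controls. Mutants 6, 7 and 8 lay below every control, and mutant 9 lay just above control 1. Mutants averaged 9.31 ± 0.845 CPM (SD, n = 4) and controls 14.9 ± 2.78 CPM (SD, n = 5), 0.625 times the control level. The difference on the log2 scale was -0.68 ± 0.17 (SE). The edgeR adjusted p was 0.0594 with all libraries, above the threshold, and 0.0223 without control replicate 1, which was the lowest control. Leaving out any other library gave no call, with adjusted p up to 0.139. Without control replicates 2 and 5 together the adjusted p was 0.147. This receptor gene was called lower by the likelihood ratio test (adjusted p 0.0273, with 8.19% of all genes called) and by DESeq2 (adjusted p 0.00777).

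The other *igf1r* identifier, ENSDARG00000027423, had 3.501, 4.49, 3.17 and 4.74 CPM in mutants and 3.40, 5.21, 6.20, 3.99 and 5.30 CPM in controls. These ranges overlapped over most of their width. Its log2 fold change of -0.28 ± 0.23 (SE) had an edgeR adjusted p of 0.532. Its share of the counts of both receptor genes was 27.8%, 34.0%, 26.3% and 31.0% in mutants, against 24.7%, 27.0%, 27.0%, 19.8% and 23.7% in controls. The share compares the receptor genes within a library and does not depend on scaling between libraries. Mutants averaged 29.8 ± 3.46% (SD, n = 4) and controls 24.4 ± 2.97% (SD, n = 5), a difference of 5.33 percentage points with an exact permutation p of 0.0476 (two-sided). This rested on all the libraries together. The exact permutation p was 0.0357 without mutant 8, and 0.0571 to 0.0893 without any 1 of the other 8 libraries.

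*igf2r* (ENSDARG00000006094) encodes the mannose 6-phosphate receptor that clears Igf2 in mammals. Its levels were 9.28, 7.35, 9.08 and 11.5 CPM in mutants, against 5.995, 7.54, 9.90, 5.72 and 9.66 CPM in controls. The genotypes overlapped, and the log2 fold change of 0.26 ± 0.22 (SE) had an edgeR adjusted p of 0.532. Among ligands and receptors, *igf2r* was the gene with a higher mean in mutants, within the spread of the libraries.

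**Figure D2:**
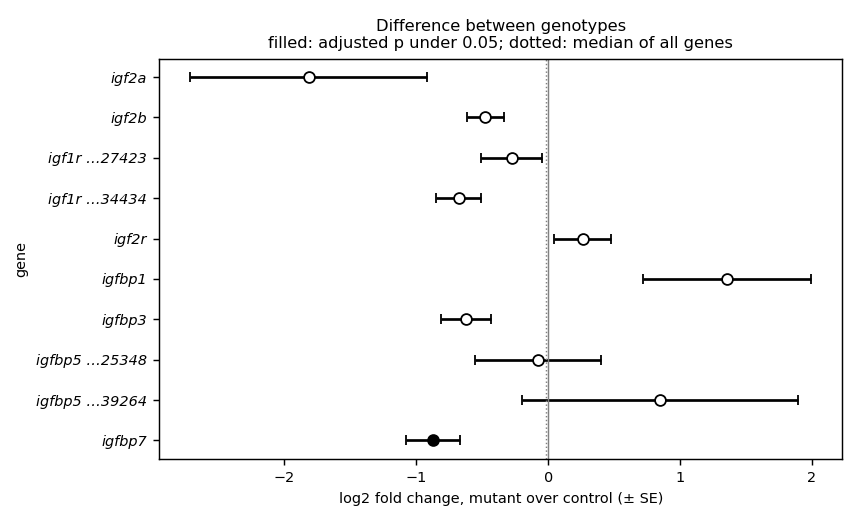
Log2 fold change of each Igf gene, mutant over control, with its SE (4 mutant and 5 control libraries); the filled point passed an adjusted p of 0.05 and the dotted line is the median of all genes. *igfbp7* at -0.87 is the filled point, and *igf2a*, *igfbp1* and *igfbp5* ENSDARG00000039264 have the widest errors.

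Among binding proteins, *igfbp7* (ENSDARG00000104138) encodes a secreted matrix protein of the vessel wall that binds Igfs weakly. It had 4.38, 4.93, 4.54 and 5.31 CPM in mutants, against 10.4, 10.01, 5.52, 8.77 and 9.18 CPM in controls. Every mutant lay below every control, and control 3 lay just above mutant 9. Mutants averaged 4.79 ± 0.418 CPM (SD, n = 4) and controls 8.79 ± 1.94 CPM (SD, n = 5). *igfbp7* fell to 0.546 times the control level, a log2 fold change of -0.87 ± 0.20 (SE) with an edgeR adjusted p of 0.0461. Counts were 125 to 167 in mutants and 195 to 338 in controls.

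The call of *igfbp7* was close to the threshold. Without control replicate 3 the edgeR adjusted p was 0.0195. Without control replicates 1, 2, 4 or 5 it was 0.0751, 0.0714, 0.0812 and 0.0812, and without mutant replicates 6, 7, 8 or 9 it was 0.115, 0.102, 0.1004 and 0.0866, so the call was lost in 8 of 9 cases. The log2 fold change stayed between -1.003 and -0.804 in these fits, which called 1.18% to 2.90% of all genes. Limma-voom, which called 3.96% of all genes, gave an adjusted p of 0.0832, and leaving out control replicates 2 and 5 together gave 0.134. Cells of the endothelium and endocardium are known to make this protein in mammals. Their 11 measured markers had a summed level of 1184 to 1363 CPM in mutants and 823 to 1118 CPM in controls. Of these 11, 1 (*vwf*) was called higher and 0 lower, where 3.34% of all genes were called. *vwf* held 350 of the 1196 CPM in mutant 6 and 150 of the 1118 CPM in control 1. The lack of overlap of the sums rested on *vwf*. The median log2 fold change of these markers was 0.14. Their part in the result was not tested.

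*igfbp3* (ENSDARG00000099144) encodes the main Igf carrier of mammalian blood. Its levels were 33.4, 44.6, 44.1 and 28.3 CPM in mutants, against 60.1, 76.4, 54.7, 44.9 and 53.1 CPM in controls. No mutant reached the lowest control, replicate 4, which was less than 1 CPM above mutant 7. Mutants averaged 37.6 ± 8.08 CPM (SD, n = 4) and controls 57.8 ± 11.7 CPM (SD, n = 5), 0.650 times the control level. The log2 fold change of -0.62 ± 0.19 (SE) had an edgeR adjusted p of 0.103 and did not pass, while DESeq2 gave 0.0301. DESeq2 was the 1 of 18 alternative fits that called *igfbp3*. Without control replicate 2, the highest control, the log2 fold change was -0.50 and the adjusted p 0.146.

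*igfbp1* (ENSDARG00000099351) encodes a binding protein that the liver secretes in fasting, that insulin represses and that hypoxia induces in zebrafish. It had 24.5, 16.8, 22.6 and 4.04 CPM in mutants, against 13.7, 5.85, 5.35, 7.39 and 0.918 CPM in controls. Mutants 6, 7 and 8 lay above every control, mutant 9 lay below 4 of the 5 controls, and control 5 lay far below the rest. Mutants averaged 17.0 ± 9.25 CPM (SD, n = 4) and controls 6.63 ± 4.61 CPM (SD, n = 5), a log2 fold change of 1.36 ± 0.64 (SE) with an edgeR adjusted p of 0.257. It was 1.08 (edgeR adjusted p 0.288) without control replicate 5 and 0.95 (adjusted p 0.435) without control replicates 2 and 5. In the GRCz12tu annotation *igfbp1a* and *igfbp3* are neighbours, with 0 protein-coding genes between them. Their log2 fold changes had opposite signs.

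The *igfbp5* genes encode binding proteins that also attach to extracellular matrix. The identifier ENSDARG00000025348 had 20.4, 19.3, 16.6 and 18.5 CPM in mutants, against 21.8, 6.08, 12.1, 11.8 and 47.0 CPM in controls. Means were nearly equal, at 18.7 ± 1.59 CPM (SD, n = 4) in mutants and 19.8 ± 16.2 CPM (SD, n = 5) in controls, but mutants were close together and controls were not. The coefficient of variation was 8.51% in mutants and 82.2% in controls, where control 5 was the highest library and control 2 the lowest. The log2 fold change was -0.08 ± 0.48 (SE, edgeR adjusted p 0.946), and without control replicate 5 it was 0.53 (adjusted p 0.410). No direction can be given for this gene. The other identifier, ENSDARG00000039264, had 33, 7, 19 and 0 counts in mutants and 8, 0, 7, 16 and 15 counts in controls, too few to show a difference at this depth (log2 fold change 0.85 ± 1.04 SE, edgeR adjusted p 0.694).

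Cell type markers were set beside these genes, since Igf ligands and binding proteins are made by some cardiac cells more than others. For the counts of called markers, the shares over all genes were 3.34% called, 2.13% higher and 1.21% lower. Markers of fibroblasts and epicardium summed to 734 to 967 CPM in mutants and 654 to 1235 CPM in controls over 16 genes. Their median log2 fold change was -0.02, and 1 of the 16, *tbx18*, was called lower (3.89 CPM in mutants and 11.6 CPM in controls). At an unadjusted p under 0.05, 2 of the 16 were lower and 2 higher. The lower genes were *tbx18* and *tcf21* (3.59 CPM in mutants and 10.4 CPM in controls). The higher genes were *wt1b* (2.27 CPM in mutants and 0.788 CPM in controls) and *fn1* ENSDARG00000019815 (13.7 CPM in mutants and 8.43 CPM in controls). Among 7 lymphatic endothelial markers, *flt4* (0.360 CPM in mutants and 2.84 CPM in controls), *stab2* (0.456 CPM in mutants and 3.60 CPM in controls) and *cdh6* (0.278 CPM in mutants and 2.29 CPM in controls) were called lower and *mrc1* (21.7 CPM in mutants and 1.71 CPM in controls) higher. The sum of all 7 was 145 to 176 CPM in mutants and 88.2 to 135 CPM in controls, and came mostly from *stab1* and *prox1*. *stab1* averaged 85.1 CPM in mutants and 42.1 CPM in controls (edgeR adjusted p 0.0669). *prox1* averaged 49.97 CPM in mutants and 54.2 CPM in controls (edgeR adjusted p 0.757). Markers of ventricular cardiomyocytes, whose sums are given above, had 1 of 11 genes called lower and 0 higher, a median log2 fold change of -0.34 and no overlap of the sums. At an unadjusted p under 0.05, 7 of the 11 were lower and 1 was higher, where 9.87% of all genes were lower and 11% higher. Of 10 markers of bulbus smooth muscle, 6 were lower and 1 was higher at the same unadjusted p, with a median log2 fold change of -0.95. Of these 10, 2 were called, *myh11* ENSDARG00000009782 lower (12.6 CPM in mutants and 32.6 CPM in controls) and *tagln* ENSDARG00000045408 higher (33.8 CPM in mutants and 12.7 CPM in controls). Sums of the bulbus markers overlapped at 168 to 312 CPM in mutants and 174 to 369 CPM in controls. Summed markers of atrium, leukocytes, erythrocytes, liver and skeletal muscle overlapped between genotypes, and 0 markers were at 0 in every library of a genotype. What part these differences have in the levels of *igf2b*, *igf1r*, *igfbp3* and *igfbp7* was not tested.

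The rest of the pathway was read from 7 lists with 101 further genes. One of them, *igfbp6b*, was called higher and 0 were called lower, 0.990% of the lists against 3.34% of all genes. At an unadjusted p under 0.05, 13 of the 101 genes were higher and 5 lower, where 11% of all genes were higher and 9.87% lower. The median log2 fold change was -0.01, as over all genes. By list, the medians were -0.92 for 11 genes of further binding proteins and Igf release, 0.11 for 4 insulin and growth hormone receptor genes, -0.09 for 20 receptor adaptors, -0.06 for 25 genes of PI3K and Akt, 0.03 for 23 genes of the Tor arm, 0.24 for 14 Foxo genes and Foxo targets, and 0.60 for 4 genes of Igf2 mRNA-binding proteins.

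**Figure D3:**
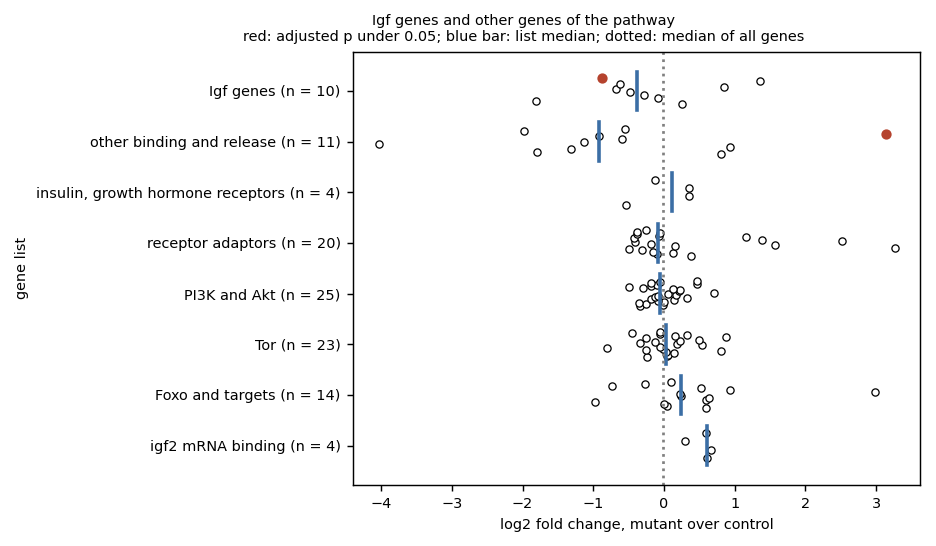
Log2 fold change, mutant over control, of every measured gene of the Igf group and of 7 further pathway lists (1 point per gene; 4 mutant and 5 control libraries). Red points passed an adjusted p of 0.05 (*igfbp7* at -0.87 and *igfbp6b* at 3.15), blue bars are list medians, and the medians of PI3K and Akt (-0.06) and of Tor (0.03) lie beside that of all genes.

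*igfbp6b* (ENSDARG00000090833) encodes a binding protein of the Igfbp6 type, which in mammals prefers Igf2 over Igf1. It had 27.0, 89.8, 45.6 and 172 CPM in mutants, against 8.56, 14.8, 9.05, 10.6 and 4.27 CPM in controls. Every mutant lay above every control, and mutants ranged more widely among themselves than controls did. *igfbp6b* rose to 83.5 ± 64.4 CPM in mutants (SD, n = 4), against 9.45 ± 3.80 CPM in controls (SD, n = 5), a log2 fold change of 3.15 ± 0.52 (SE) with an edgeR adjusted p of 0.0142. Leaving out each library in turn gave log2 fold changes of 2.52 to 3.44 and adjusted p of 0.00862 to 0.0397. Its call was kept in all 18 alternatives at the threshold of 0.05, with adjusted p of at most 0.0416, and it did not pass the stricter threshold of 0.01. Whether *igfbp6b* or the other further pathway genes lie on the chromosome of *vegfc* or *vegfd* was not checked.

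Of the 11 further binding protein and release genes, 8 had a negative log2 fold change, against 8500 of all 16575 genes. At an unadjusted p under 0.05, 3 were lower (*igfbp2*, *stc2* and *pappa*) and 1 was higher. Over all genes 9.87% were lower and 11% higher at that p. *igfbp2* (ENSDARG00000052470), a binding protein made in liver and elsewhere, had 1, 9, 5 and 1 counts in mutants, against 20, 0, 146, 6 and 209 counts in controls. Controls 3 and 5 held nearly all of these counts. The log2 fold change of -4.03 ± 1.40 (SE) had an edgeR adjusted p of 0.137, while the likelihood ratio test (adjusted p 0.0485) and DESeq2 (adjusted p 0.0125) called it lower. Of 16 alternative fits with a value, these 2 called *igfbp2*. The liver genes *fabp10a* and *apoa2*, chosen after their values were seen, were highest in the same controls, at 4.02 and 3.41 CPM and at 2.72 and 3.17 CPM, against at most 1.54 and 1.12 CPM in mutants. Of the 7 measured liver markers 0 were called, where 3.34% of all genes were. Of the 7, 6 had a negative log2 fold change, and the median was -1.39. Together the 7 summed to 183 to 434 CPM in mutants and 152 to 363 CPM in controls. That sum was mostly *rbp4*, which was highest in mutant 6 with 405 CPM, as was *tfa* with 23.8 CPM. The part of liver RNA in the result was not tested. *pappa* (ENSDARG00000101090), a protease that cleaves Igfbps, was also highest in controls 3 and 5, with 11.5 and 21.5 CPM, against 0.910 to 3.82 CPM in mutants and 1.14 to 2.56 CPM in the other controls (edgeR adjusted p 0.237). *pappa* and the next 3 genes were chosen after their values were seen.

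The Pappa inhibitor gene *stc2* (ENSDARG00000056680) had 3.36, 3.33, 3.03 and 3.43 CPM in mutants, against 3.46, 5.62, 3.37, 7.08 and 5.36 CPM in controls, with an edgeR adjusted p of 0.208. *htra1* (ENSDARG00000014907), a secreted protease of Igfbps, had 16.9 to 24.5 CPM in mutants and 16.6 to 29.1 CPM in controls except control 2, which had 157 CPM (edgeR adjusted p 0.277). The *igfbp1* paralogue *igfbp1b* (ENSDARG00000038666) had 13.2, 8.17, 7.31 and 15.3 CPM in mutants, against 6.09, 9.74, 4.47, 7.58 and 0.948 CPM in controls (edgeR adjusted p 0.314). For both *igfbp1* genes the lowest library was control 5.

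**Figure D4:**
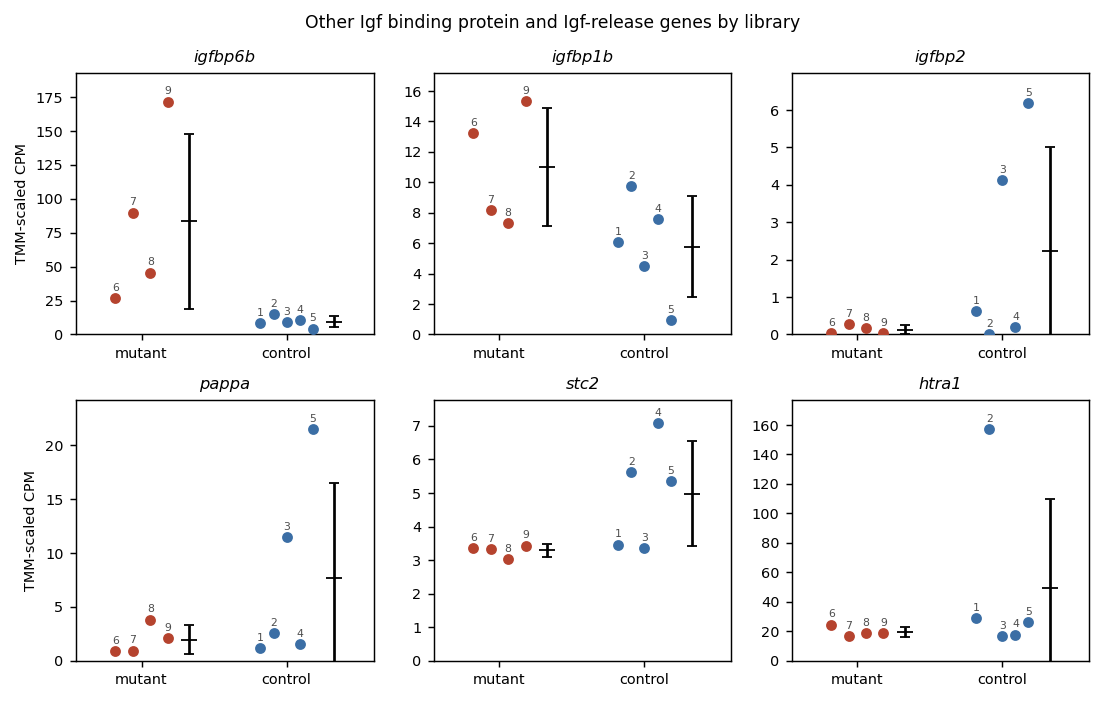
TMM-scaled CPM of 6 further Igf binding protein and Igf-release genes in each library, mutant (red) left of control (blue), with mean ± SD (n = 4 and 5) and bars cut at 0 where the SD exceeds the mean. All 4 mutants lie above all 5 controls for *igfbp6b*, whereas single controls stand apart for *igfbp2* and *pappa* (3 and 5) and *htra1* (2).

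Of the receptor genes for insulin and growth hormone, *insr* ENSDARG00000011948 averaged 124 ± 17.0 CPM in mutants (SD, n = 4) and 97.6 ± 20.5 CPM in controls (SD, n = 5), with an edgeR adjusted p of 0.277. The growth hormone receptor gene *ghrb*, whose ligand raises Igf1 production in liver, averaged 93.0 ± 33.5 CPM in mutants and 135 ± 52.1 CPM in controls (edgeR adjusted p 0.389). In both cases the genotypes overlapped and the difference did not pass the test.

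Insulin receptor substrates are the docking proteins of the insulin and Igf1 receptors. Of the 4 measured genes 0 passed the edgeR test, where 3.34% of all genes did. They belong to the 20 receptor adaptors, of which 0 were called. At an unadjusted p under 0.05, 6 of the 20 were higher and 1 lower, where 11% of all genes were higher and 9.87% lower. *irs2* ENSDARG00000037099 had 71.4, 67.6, 36.0 and 53.3 CPM in mutants, against 0.124, 0.0457, 13.5, 15.2 and 0.681 CPM in controls. The genotypes did not overlap, and controls were either below 1 CPM (replicates 1, 2 and 5) or above 10 CPM (3 and 4). The fitted log2 difference of 3.26 ± 1.15 (SE) had an edgeR adjusted p of 0.145, and limma-voom called the gene (adjusted p 0.0446). Limma-voom was the 1 of 18 alternative fits that called it. *irs1* (ENSDARG00000054087), named after its values were seen, had 67.1 to 162 CPM in mutants and 9.33 to 67.0 CPM in controls, and the edgeR adjusted p was 0.147 (log2 fold change 1.57 ± 0.56 SE). The second *irs2* gene, ENSDARG00000075282, had 251 to 394 CPM in mutants and 25.3 to 269 CPM in controls (edgeR adjusted p 0.1997), and *irs4a* averaged 1.49 ± 0.440 CPM in mutants and 1.96 ± 0.622 CPM in controls (edgeR adjusted p 0.546), both also named after their values were seen. The adaptor gene *shc2* (ENSDARG00000062080) had 14 to 23 counts in mutants and 0 to 7 counts in controls, with no overlap and an edgeR adjusted p of 0.0725. The likelihood ratio test (adjusted p 0.00107) and DESeq2 (adjusted p 0.00645) called it higher. Of 16 alternative fits with a value, these 2 called *shc2*.

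Genes of PI3K, Akt and Tor had list medians close to that of all genes. In the PI3K and Akt list 0 of 25 genes had an unadjusted p under 0.05, where 20.9% of all genes did. The genes with the smallest p were *gsk3a* ENSDARG00000015681, encoding a kinase that Akt inhibits, at 29.0 ± 1.80 CPM in mutants and 34.7 ± 4.47 CPM in controls (edgeR adjusted p 0.279), and *inpp5d*, encoding a phosphatase of blood cells that opposes PI3K, at 18.2 ± 8.72 CPM in mutants and 11.1 ± 5.14 CPM in controls (edgeR adjusted p 0.330). In the Tor list 3 of 23 genes were higher and 0 lower at an unadjusted p under 0.05, where 11% of all genes were higher and 9.87% lower. The genes with the smallest p in that list were a *tsc1* gene and *sesn2*, both encoding inhibitors of Tor. *tsc1* ENSDARG00000057918 had 27.9, 31.5, 25.6 and 36.7 CPM in mutants, against 23.1, 20.8, 19.8, 24.7 and 19.96 CPM in controls (edgeR adjusted p 0.0856). *sesn2* (ENSDARG00000070012) had 4.48, 5.06, 7.92 and 3.37 CPM in mutants, against 3.31, 2.29, 2.72, 2.86 and 2.96 CPM in controls (edgeR adjusted p 0.0906). For both genes all mutants were above all controls, and neither passed the edgeR test. DESeq2 called both higher (adjusted p 0.0257 for *tsc1* and 0.0274 for *sesn2*), and the likelihood ratio test called *sesn2* (adjusted p 0.0466). Of 18 alternative fits, 1 called *tsc1* ENSDARG00000057918 and 2 called *sesn2*. Inhibitors of Tor did not all have 1 sign. *deptor* averaged 14.5 ± 1.81 CPM in mutants and 9.94 ± 3.12 CPM in controls (edgeR adjusted p 0.237). *sesn1* averaged 178 ± 56.5 CPM in mutants and 101 ± 56.0 CPM in controls (edgeR adjusted p 0.306). Both *deptor* and *sesn1* were named after their values were seen. The second *tsc1* gene, ENSDARG00000026048, averaged 103 ± 15.3 CPM in mutants and 123 ± 12.8 CPM in controls (edgeR adjusted p 0.298), and *tsc2* averaged 35.5 ± 3.38 CPM in mutants and 36.9 ± 2.15 CPM in controls (edgeR adjusted p 0.825), both named after their values were seen.

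Foxo factors are kept out of the nucleus by Akt, and their targets include metabolic kinases and muscle ubiquitin ligases. *pdk2* ENSDARG00000059054, encoding an inhibitor of pyruvate dehydrogenase, had 1673, 1255, 623 and 1393 CPM in mutants, against 142, 35.2, 94.3, 504 and 9.18 CPM in controls. No library overlapped, and the edgeR adjusted p was 0.0953 (log2 fold change 2.98 ± 0.89 SE). It was 0.0334 without control replicate 4, the highest control, and leaving out any other library gave no call (adjusted p up to 0.186). The likelihood ratio test (adjusted p 0.00961), DESeq2 (adjusted p 0.0252) and limma-voom (adjusted p 0.0484) called this gene higher. The second *pdk2* gene, ENSDARG00000020876, averaged 736 ± 84.3 CPM in mutants and 486 ± 266 CPM in controls (edgeR adjusted p 0.484). *pdk4* averaged 125 ± 11.4 CPM in mutants and 106 ± 19.8 CPM in controls (edgeR adjusted p 0.393). Both were named after their values were seen. The ubiquitin ligase gene *trim63b* averaged 61.1 ± 12.8 CPM in mutants and 101 ± 40.0 CPM in controls (edgeR adjusted p 0.164). Controls 2 and 5 had 158 and 129 CPM, against 70.2 to 75.3 CPM in the other controls. Its log2 fold change was -0.73 with all libraries and -0.27 without control replicates 2 and 5. The ubiquitin ligase gene *fbxo32*, named after its values were seen, had a log2 fold change of 0.60 (edgeR adjusted p 0.489). Of the proteins that bind Igf2 mRNA, *igf2bp2b* averaged 5.29 ± 1.17 CPM in mutants and 3.49 ± 0.966 CPM in controls (edgeR adjusted p 0.214), and *igf2bp3* 1.92 ± 1.18 CPM in mutants and 1.20 ± 0.451 CPM in controls (edgeR adjusted p 0.452).

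Control replicate 5 was the lowest library for 27 of the 111 Igf and pathway genes (24.3%), and control replicate 2 for 18 (16.2%). Over all genes control 5 was lowest for 14.3%, less often than control 2 (19.8%) and mutant 6 (15.6%). Single genes are described next that were chosen because control 5 stood low in them, so their number is no measure of how common this was. *ddit4*, encoding a stress-induced Tor inhibitor, had 27.8, 32.0, 39.8 and 45.1 CPM in mutants, against 69.0, 72.1, 109, 65.8 and 1.096 CPM in controls. Every control but replicate 5 lay above every mutant. With all libraries the log2 fold change was -0.81 ± 0.77 (SE, edgeR adjusted p 0.601). Without control 5 it was -1.12 ± 0.21 (SE, edgeR adjusted p 0.0317), a call that rests on leaving out that library.

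Some genes outside the pathway, chosen in the same way, were also low in control 5. *fkbp5*, a glucocorticoid-responsive gene, had 969 to 1344 CPM in mutants and 412 to 809 CPM in controls 1 to 4, and 4.86 CPM in control 5. The clock genes *nr1d1* and *ciarta* had 3.85 and 1.45 CPM in control 5, against at least 77.1 and 30.1 CPM in every other library. The immediate early gene *fos* had 0.622 CPM there, against 6.85 to 16.9 CPM in controls 1, 3 and 4, 107 CPM in control 2 and 29.1 to 53.3 CPM in mutants. Its edgeR adjusted p was 0.785 with all libraries. The edgeR adjusted p of *fos* was 0.0927 without control 2 and 0.884 without control 5. Without both it was 0.0349, with a log2 fold change of 2.03. That call rests on leaving out control 2, its highest library, in an alternative chosen after the data were seen. These genes respond to hormones, time of day and handling, and their part in the levels of *igfbp1*, *igfbp1b*, *irs2* ENSDARG00000075282 and *pdk2* ENSDARG00000059054 in control 5 was not tested.

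**Figure D5:**
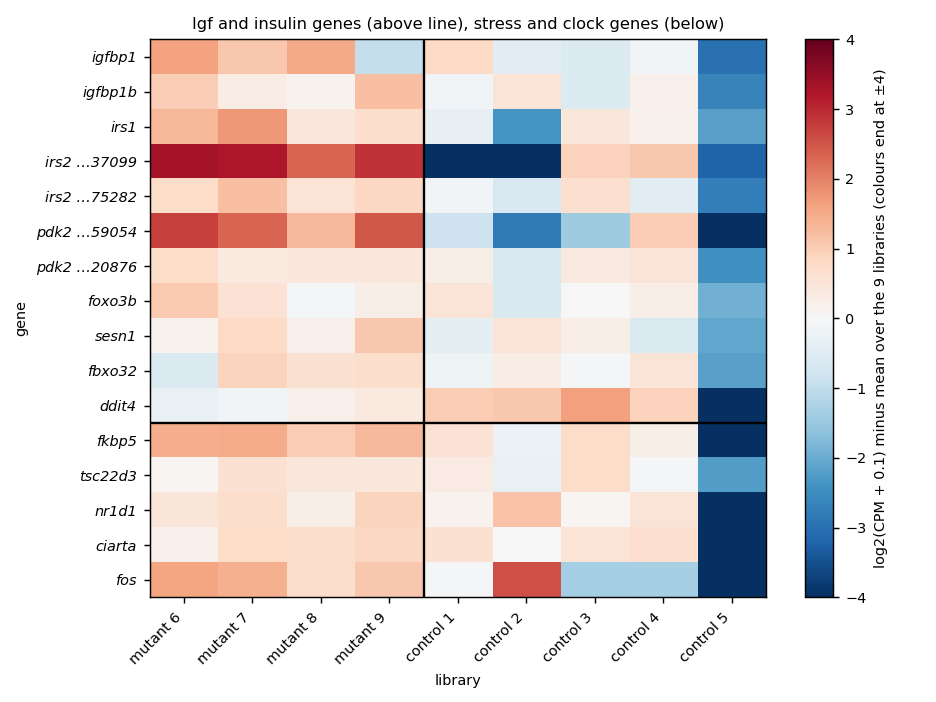
Level of 11 Igf and insulin response genes (above the line) and 5 stress, clock and immediate early genes (below) in each library, as log2(CPM + 0.1) minus the gene's mean over the 9 libraries, with mutant left of control and colours ending at ±4. The genes were chosen after their values were seen; *igfbp1*, *igfbp1b* and *ddit4* have their lowest level in control 5, while *irs2* ENSDARG00000037099 and *pdk2* ENSDARG00000059054 are above their mean in all 4 mutants.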

How the data were processed

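Poly(A) RNA from fresh ventricles was sequenced as stranded paired-end libraries. The authors trimmed reads with Skewer, aligned them to GRCz11 with STAR 2.5.2a and counted them per Ensembl gene on the annotated strand with featureCounts 1.5.0 (names and versions as in the submitters' processing notes and the methods). The deposited values are raw counts for 16575 genes, none with a mean below 10. A symbol was found for 15812 identifiers in a table of gene names, and no sequence or position is given.

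Counts were scaled by TMM and tested with the quasi-likelihood F test (legacy form, two-sided, no covariate) of edgeR 4.0.16 under R 4.3.3, with Benjamini-Hochberg adjustment over all genes. The SE is the size of the log2 fold change over the square root of F. Shares within a gene pair had exact permutation tests over all 126 assignments of libraries. The procedure was checked on simulated data. It recovered 29 of 100 genes given a 2-fold change and 79 of 100 given a 4-fold change. The changed genes were drawn from those with a mean of at least 50 counts. Recovery of genes with fewer counts was not measured. Both sizes of change were in the same simulated set, in which 8 unchanged genes were called. Libraries were grouped by their titles and genotype labels. The labels do not say that each came from its own fish, so p-values measure the spread between libraries. Alternatives were DESeq2 1.42.0, the likelihood ratio test, limma-voom (limma 3.58.1), a robust fit, RLE or library size scaling, an adjusted p under 0.01, further filters on lowly expressed genes and leaving out libraries.

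The Igf genes, 7 pathway lists and 10 marker lists were chosen with earlier results of these data known. Named were all Igf genes, and of each pathway list every called gene and otherwise the 2 with the smallest p. The genes *vegfc* and *vegfd* were named as a check of the labels. Single genes of the marker lists were named after their values were seen. Other genes named outside that rule are stated as chosen later. CPM are not divided by gene length, so levels are compared between genotypes and not between genes.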

Additional observations from a re-analysis of the deposited data

Results flagged for a closer look

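One library stood apart within its genotype among 52 groups of libraries checked (26 genes in 2 genotypes). Expression of *pdk2* ENSDARG00000059054 in control replicate 4 was 503.7 CPM, against 9.18 to 142 CPM in the other controls and 623 to 1673 CPM in mutants. Its distance to the next control was 0.732 of the range of the controls. Chance alone would set apart about 1 in 20 groups, or 2.6 of 52.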

How the results depend on the processing

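Among single genes, 392 of 423 alternative values kept their direction and their side of the threshold, 17 passed it newly, 10 lost it and 4 changed sign. The sign changes were those of *igfbp5* ENSDARG00000025348 under limma-voom (0.22), on leaving out a library (-0.31 to 0.53, 0.53 being without control replicate 5) and without control replicates 2 and 5 (0.30), and of *igfbp5* ENSDARG00000039264 under limma-voom (-0.015), none of which passed the test. All 10 lost calls were those of *igfbp7*, out of its 18 alternatives, while *igfbp6b* lost 0 of 18. These were the genes called with all libraries. For every other gene, keeping its side of the threshold meant staying uncalled. Counts of called genes, given for all genes, Igf genes and further pathway genes, were 553, 1 and 1 as reported. They were 1357, 2 and 5 with the likelihood ratio test, 1666, 4 and 7 with DESeq2, 656, 0 and 4 with limma-voom, 87, 0 and 0 at a threshold of 0.01, and 258, 0 and 2 without control replicates 2 and 5, an alternative chosen after the data were seen. Leaving out each library in turn gave 196 to 481, 0 to 1 and 1 to 2. Without mutant replicate 7, 196 genes were called. *grb14* was called without control 2, *pdk2* ENSDARG00000059054 without control 4 and *ddit4* without control 5 (*grb14* and *ddit4* were named after their values were seen). The difference in the *igf1r* share ran from 3.91 to 6.50 percentage points (exact permutation p 0.0357 to 0.0893) and that in the *igf2b* share from 1.08 to 1.80 (exact permutation p 0.0286 to 0.179). The causes were not tested. Depth limits genes with few counts, such as *igf2a*, *igfbp5* ENSDARG00000039264 and *shc2*. No paired analysis was possible because the genotypes share no replicate numbers.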
